A study of Mus musculus with 12 samples.

Results

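The 4 monocyte chemoattractant genes Ccl2, Ccl7, Ccl8 and Ccl12 and the receptor gene Ccr2 were followed in mouse peritoneal exudate cells, the mixed leukocytes flushed from the abdominal cavity. They were taken as all probes, other than control spots, that the array's design names for these 5 genes. This gave 7 probes on 16 spots of the 41174 probes on 43379 spots, with 1 probe each for Ccl2 (printed 10 times), Ccl8 and Ccl12 and 2 probes each for Ccl7 and Ccr2. All 5 genes and 7 probes were among the 18275 genes and 27716 probes tested, of 27670 genes in all. Testing required that the scanner software marked the probe as well above background throughout 1 or more groups. Ccl8 and Ccl12 entered through the groups given interferon beta (IFN-β), since neither was above background on any wild-type array after saline.

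Cells came from female mice of 8 weeks on a background given as 129S2/SvPas*BALB/c. The mice were wild type or Ifnar2-/-, lacking a subunit of the type I interferon receptor. They were killed 3 hours after an intraperitoneal injection of either IFN-β, given as 10000 IU/ml, or phosphate-buffered saline (PBS). Each of the 4 groups had 3 single-colour Agilent arrays, and the design text states that every sample came from different mice. How the knockout allele was made is not stated in the labels. The study's title concerns an IFN-β signalling route through Ifnar1, and the design asks which responses remain without Ifnar2.

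Chemokines are small secreted proteins that direct leukocyte migration through G protein-coupled receptors. Ccl2, Ccl7 and Ccl12 are ligands of Ccr2, the receptor through which inflammatory monocytes leave the bone marrow and enter inflamed tissue. Mouse Ccl8 is a close paralogue that is also known as a ligand of Ccr8. Type I interferons act through the receptor pair Ifnar1 and Ifnar2, the kinases Jak1 and Tyk2 and transcription factors such as Irf9. Ccl2 and its paralogues are in addition well-known targets of NF-kB in macrophages.

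The 4 ligand genes lie in 1 cluster. In the order of their probes on chromosome 11 (build mm7, per the file headers) these are Ccl2 at 82118723 to 82118782, Ccl7 at 82128577 to 82128636 and 82128729 to 82128788, Ccl12 at 82184783 to 82184842 and Ccl8 at 82198181 to 82198240. The probe of Ccl11, which encodes an eosinophil attractant, lies between those of Ccl7 and Ccl12, and the probe of Ccl1 follows that of Ccl8. Neither Ccl11 nor Ccl1 passed the filter on dim probes. The 2 Ccr2 probes lie on chromosome 9 at 123827135 to 123827194 and 123827706 to 123827765, the second assigned to the cDNA AK162705. Because the ligands are paralogues, the probes were compared for shared sequence. Among the probes of different members, of 60 bases each, the longest shared run was 13 bases, between Ccl8 and Ccl12. It is shown in capitals within 30 bases of each probe.
Ccl8 probe: ttctgcagCCTTGAACCTTCAcacctgagt
Ccl12 probe: tCCTTGAACCTTCAtgtctaggctgagagt
All other pairs of probes of different members shared at most 8 bases in a row.

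Upstream sequence of 250 bases, up to the base before the annotated start, was available from RefSeq (GRCm38.p6) for Ccl8, Ccl12 and Ccr2. Ccl8 and Ccl12 are shown because they are the adjacent paralogues whose signal was below background in resting wild-type cells and rose after IFN-β. Ccr2 is shown as the member that was abundant in every group. Capitals mark the TATA box (TATAAA).
Ccl8, chr11:82114935-82115184, plus strand: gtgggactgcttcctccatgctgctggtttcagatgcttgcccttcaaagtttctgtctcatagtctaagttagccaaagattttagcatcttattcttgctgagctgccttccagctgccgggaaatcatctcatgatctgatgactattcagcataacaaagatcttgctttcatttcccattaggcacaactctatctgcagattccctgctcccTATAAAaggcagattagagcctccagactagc
Ccl12, chr11:82101595-82101844, plus strand: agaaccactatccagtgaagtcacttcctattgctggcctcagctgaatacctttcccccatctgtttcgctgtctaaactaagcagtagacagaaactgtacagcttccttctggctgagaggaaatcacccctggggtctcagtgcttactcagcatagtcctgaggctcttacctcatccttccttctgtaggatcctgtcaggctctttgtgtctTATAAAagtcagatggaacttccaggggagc
Ccr2, chr9:124101933-124102182, plus strand: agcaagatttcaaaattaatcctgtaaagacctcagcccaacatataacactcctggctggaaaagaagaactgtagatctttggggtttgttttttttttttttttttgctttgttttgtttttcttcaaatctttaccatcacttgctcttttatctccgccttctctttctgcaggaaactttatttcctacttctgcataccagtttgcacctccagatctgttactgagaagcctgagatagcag
The TATA box began 32 bases before the start of Ccl8 and 31 bases before that of Ccl12, and no match lay in the Ccr2 window. Such a match on either strand occurred in 12.4% of 32851 windows of the same length. None of the 3 windows matched the interferon-stimulated response element (2 TTTC half-sites 2 bases apart, in 2.98% of windows), TTCNNNGAA (the GAS element, 7.02%), TGANTCA (an AP-1 site, 6.75%) or the NF-kB consensus (3.90%), on either strand. In a global alignment the Ccl8 and Ccl12 windows had the same base at 65.2% of aligned positions, against 58.7% for Ccl8 with Ccr2 and 59.5% for Ccl12 with Ccr2.

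Values are log2 of the processed signal over the array's 75th percentile, so that 0 is the signal that 75% of spots did not exceed. They were compared within a probe, since levels of different probes are not on one scale. Arrays lay on 3 slides. Slide 3 held the Ifnar2-/- arrays 2 and 3 of both treatments, with 59.4% to 62.5% of spots well above background against 65.2% to 71.6% on the other arrays. Of the 2 Ifnar2 probes, A_52_P190405 was at 4.64 ± 0.23 (SD, n = 3) in wild type and 2.79 ± 0.14 (n = 3) in Ifnar2-/- after PBS. The other, A_51_P338924, was at 1.64 ± 0.07 and 2.59 ± 0.10 (SD, n = 3 each). Whether either lies in the deleted part is not known here. Markers of resident macrophages (11 of 12), B cells (10 of 10) and mast cells (10 of 10) passed the filter, as did 10 of 11 monocyte and 10 of 12 neutrophil markers.

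In wild-type cells IFN-β raised all 4 ligand genes and left Ccr2 without a detectable change. The log2 rise was 6.95 for Ccl2, 11.15 for Ccl7, 10.43 for Ccl12 and 6.02 for Ccl8. The last 2 were taken against a detection floor, because no wild-type PBS array measured these genes above background. They are not lower limits: with another background correction, normexp, the fitted rises were 7.60 for Ccl12 and 3.21 for Ccl8. By limma with Benjamini-Hochberg adjustment over all genes, Ccl2 and Ccl7 passed an adjusted p of 0.05 in the higher direction, where 17.5% of all genes did. Ccl8 and Ccl12 passed as well, but they entered the test only through the IFN-β groups in which they are high. The filter thus favoured a difference, and their calls add no support. The PBS and IFN-β arrays did not overlap for Ccl2 and Ccl7, as for 24.4% of all genes in that direction. Those of Ccl8 and Ccl12 did not overlap either, which adds no support for the same reason. The median log2 difference was -0.05 over all genes tested.

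Ccl2 encodes the best known Ccr2 ligand, which macrophages and stromal cells secrete. Its 3 wild-type PBS arrays read -0.08, -0.22 and 0.22, and its 3 IFN-β arrays 6.98, 7.06 and 6.74. All IFN-β arrays thus lay far above all PBS arrays, with a spread within each group of 0.22 and 0.17 (SD, n = 3). The difference was 6.95 (SE 0.34, adjusted p = 1.49e-07), or 124-fold.

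Ccl7 encodes a second Ccr2 ligand that also binds other CC receptors. Its brighter probe read -5.25, -4.71 and -4.18 after PBS and 6.33, 6.78 and 6.19 after IFN-β. The groups were separated by more than 10 log2 units, and the probe was above background on all 6 arrays. The difference was 11.15 (SE 0.62, adjusted p = 4.14e-07), or 2274-fold. Its size depended on the background correction, with 9.57 under normexp correction. The second Ccl7 probe gave 10.96 (SE 0.63, adjusted p = 4.37e-07 in a fit of all probes).

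Ccl12 is a Ccr2 ligand known from rodents. Its probe read -6.59, -7.43 and -7.18 after PBS, none of them well above background, and 3.78, 3.80 and 4.14 after IFN-β. Since the resting level was not measured above background, the rise was taken against a floor. That floor was the lowest signal well above background on each array, or the probe's own reading where higher. It gave 1377-fold with the deposited background subtraction, which is not a lower limit under another correction. The fitted difference was 10.97 (SE 0.34, adjusted p = 8.85e-09).

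Ccl8 read -6.42, -7.57 and -6.56 after PBS, again with no array above background, and -0.59, -1.01 and 0.19 after IFN-β. The rise was 64.8-fold against the same kind of floor, with a fitted difference of 6.38 (SE 0.37, adjusted p = 5.60e-07). For the ligands that started at or near background the fitted size depended on the background correction. With normexp correction it was 3.21 for Ccl8 and 7.60 for Ccl12, and both calls held.

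Ccr2, the receptor, was well above background on all 12 arrays. Its brighter probe read 2.89, 2.53 and 2.61 on wild-type PBS arrays and 3.24, 2.98 and 2.81 on wild-type IFN-β arrays. All IFN-β arrays but 1 exceeded the highest PBS array, and the difference of 0.33 (SE 0.22, adjusted p = 0.268) did not pass. Its 95% interval ran from -0.15 to 0.81. The second probe gave 0.28 (SE 0.31, adjusted p = 0.526).

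**Figure D1:**
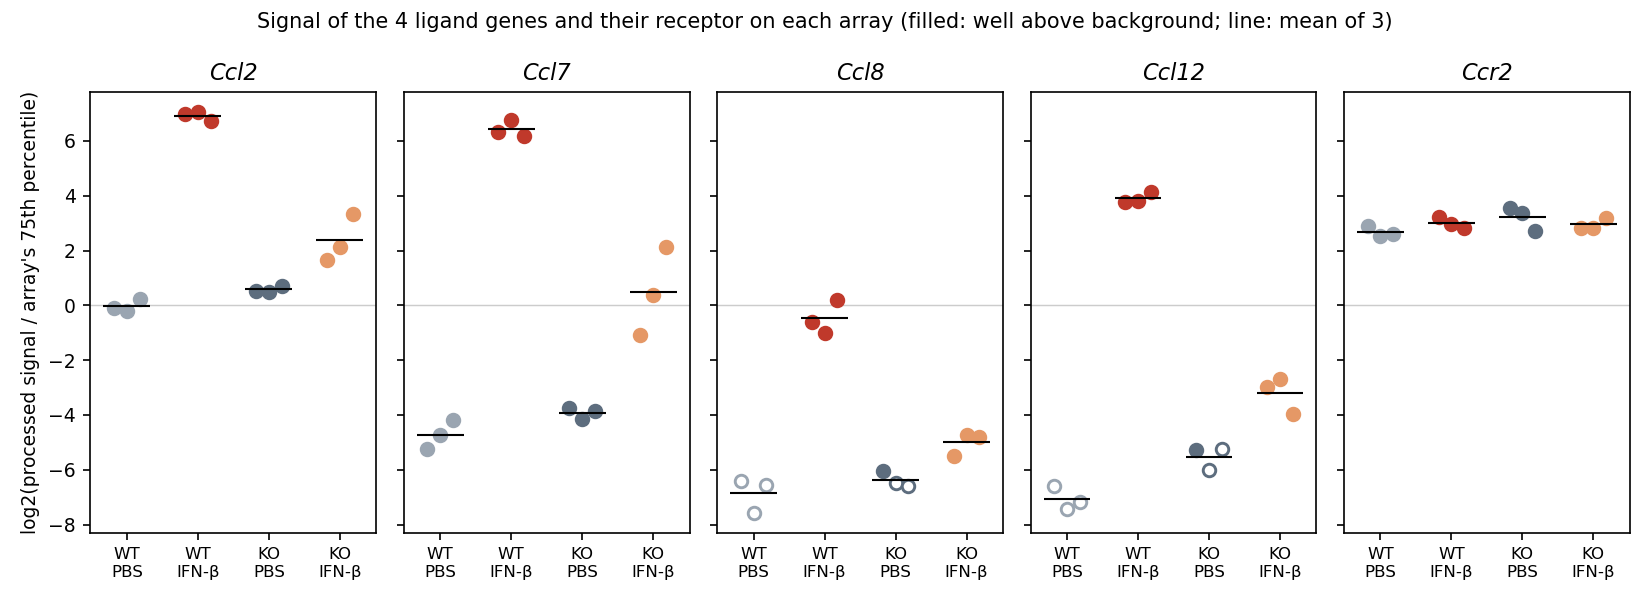
Signal of each member's brighter probe on each array (y axis, log2 of processed signal over the array's 75th percentile) in the 4 groups, WT for wild type and KO for Ifnar2-/-, with a line at the mean of 3 arrays. Filled points were well above background and open points were not. The ligand genes were highest on the 3 wild-type IFN-β arrays, and Ccr2 stayed between 2.53 and 3.55 on all 12 arrays.

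Without Ifnar2 the ligand response was much smaller, and for Ccl2, Ccl7 and Ccl12 it was still above the threshold. Ccl2 and Ccl7 passed in the higher direction, where 0.963% of all genes did. Ccl12 passed and Ccl8 did not, and neither counts as support, since both entered the test only through IFN-β groups in which they are high. The IFN-β and PBS arrays of Ifnar2-/- cells did not overlap for Ccl2 and Ccl7, as for 11.4% of all genes in that direction. Those of Ccl8 and Ccl12 did not overlap either, and again do not count as support. The median was -0.04 over all genes.

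Ccl7 had the largest response of the members in Ifnar2-/- cells. The PBS arrays read -3.75, -4.14 and -3.85 and the IFN-β arrays -1.07, 0.37 and 2.13. The IFN-β arrays were thus all higher, though spread over more than 3 log2 units. The difference was 4.39 (SE 0.62, adjusted p = 0.0130), or 21.0-fold, and it was 3.43 with normexp correction. The second probe gave 3.95 (SE 0.63, adjusted p = 0.0194).

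Ccl2 read 0.53, 0.50 and 0.72 on the Ifnar2-/- PBS arrays and 1.67, 2.14 and 3.34 on the IFN-β arrays. The lowest IFN-β array lay above the highest PBS array. The difference was 1.80 (SE 0.34, adjusted p = 0.0375), or 3.48-fold. This call was close to the threshold and was lost with slide as a fixed block (adjusted p = 0.0550) and without a filter on dim probes (0.0915). It was also lost without Ifnar2-/- PBS array 1 (0.122), 2 (0.150) or 3 (0.0907) and without IFN-β array 2 (0.0559), at rises of 1.76 to 1.92.

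Ccl12 read -5.30, -6.01 and -5.26 on the PBS arrays, of which 1 was well above background, and -2.99, -2.69 and -3.95 on the IFN-β arrays, of which all 3 were. The difference was 2.31 (SE 0.34, adjusted p = 0.0136). Ccl8 read -6.06, -6.49 and -6.59 after PBS, again with 1 array above background, and -5.48, -4.72 and -4.79 after IFN-β. Its difference of 1.38 (SE 0.37, adjusted p = 0.103) did not pass. For both genes the PBS level is measured on 1 of 3 arrays only, and with normexp correction the difference was 0.94 for Ccl12, still past the threshold, and 0.26 for Ccl8. Without Ifnar2-/- PBS array 2 the calls of Ccl12 (2.06, adjusted p = 0.0684) and Ccl7 (4.28, 0.0683) were lost.

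Ccr2 read 3.55, 3.36 and 2.71 on the PBS arrays and 2.84, 2.84 and 3.19 on the IFN-β arrays of Ifnar2-/- mice. The groups overlapped, and the difference of -0.25 (SE 0.22, adjusted p = 0.577) did not pass, with a 95% interval from -0.74 to 0.23.

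The Ifnar2-/- IFN-β arrays differed among themselves, and not in the same way for each ligand. Over the mean of the PBS arrays, Ccl7 was up by 2.85, 4.29 and 6.04 on arrays 1, 2 and 3, and Ccl2 by 1.09, 1.55 and 2.75. Ccl12 was up by 2.53, 2.83 and 1.57, with its smallest rise on the array where Ccl2 and Ccl7 were highest. Ccl8 was up by 0.90, 1.66 and 1.59. The summed signal of the 10 neutrophil markers tested, in multiples of the 75th percentile, was 21.6, 81.8 and 200.8 on the same arrays and 12.4 to 17.5 on the Ifnar2-/- PBS arrays. None of the 10 markers passed the limma test between these groups, and 5 were higher at an unadjusted p under 0.05. Among the defining genes, Ly6g and Camp did not pass the filter. Of the wild-type PBS arrays 1 had a neutrophil sum of 109.4, with the lowest Ccl7 value of its group (-5.25) and the middle Ccl2 value (-0.08). Its values of Ccr2 (2.89), Ccl8 (-6.42) and Ccl12 (-6.59) were the highest of the group, the last 2 not above background. The part of neutrophils in the knockout rises was not tested. Without array 3, where the neutrophil sum was highest, Ccl2 was up by 1.32 (adjusted p = 0.0129), Ccl7 by 3.57 (0.00504) and Ccl12 by 2.68 (0.00334). Array 2, with a sum of 81.8, stayed in that fit.

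Array 1 shared slide 2 with 1 PBS array, and arrays 2 and 3 shared slide 3 with 2 PBS arrays. Within slide 2 the rise was 1.14 for Ccl2, 2.69 for Ccl7, 0.58 for Ccl8 and 2.30 for Ccl12. Within slide 3 it was 2.13, 5.24, 1.78 and 2.31 in the same order. The direction was thus the same on both slides for each ligand. Neither PBS array on slide 3 measured Ccl8 or Ccl12 well above background. The sizes of these rises therefore cannot be compared between the slides. Without slide 3, an alternative added after seeing the data, 1 array a group remained in Ifnar2-/- and no ligand passed (adjusted p from 0.177 for Ccl12 to 0.368 for Ccl2, and 0.221 for Ccl7). A fit of the 6 Ifnar2-/- arrays alone also ended the 3 calls, with adjusted p of 0.269 for Ccl2, 0.180 for Ccl7 and 0.167 for Ccl12. That limma fit called 13 genes higher and 0 lower (1137 and 1157 at an unadjusted p under 0.05), against 176 and 38 in the fit of all 12 arrays.

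**Figure D2:**
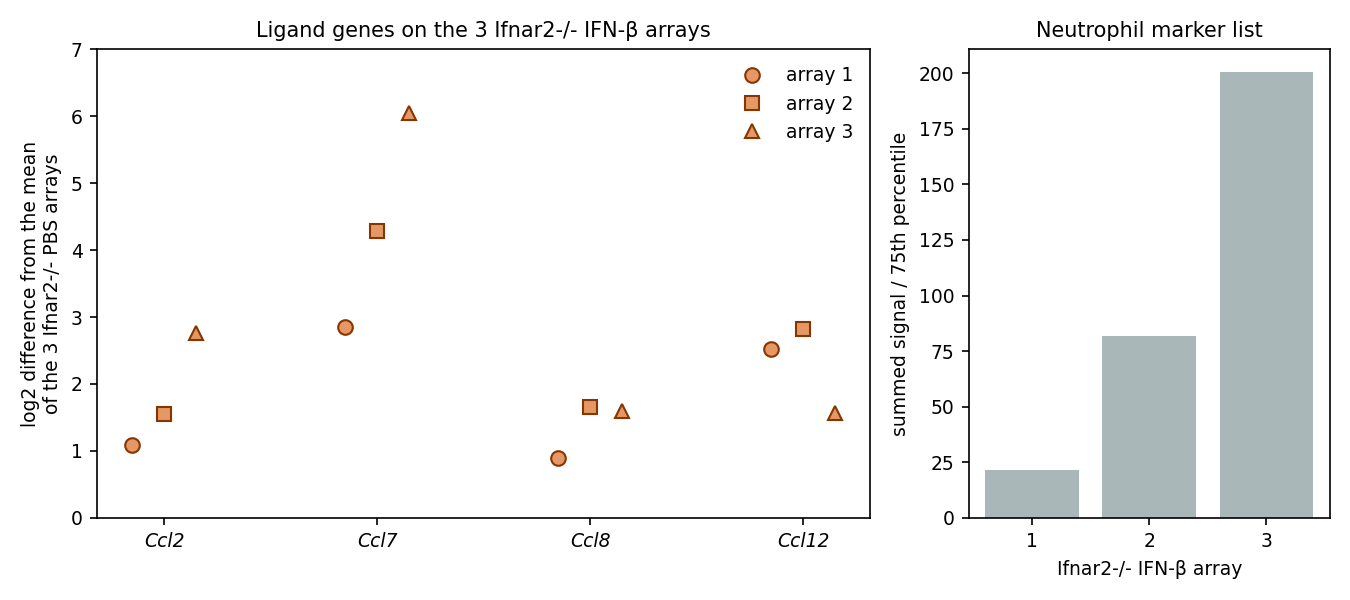
Left, the log2 difference of each ligand gene on the 3 Ifnar2-/- IFN-β arrays from the mean of the 3 Ifnar2-/- PBS arrays, with 1 symbol per array. Right, the summed signal of the 10 neutrophil markers tested on the same arrays, over the 75th percentile. Array 3 had the largest rises of Ccl2 (2.75) and Ccl7 (6.04), the smallest of Ccl12 (1.57) and the highest marker sum (200.8).

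The dependence on Ifnar2 was tested as the Ifnar2-/- response minus the wild-type response. It was negative for all 4 ligands and passed for each, where 9.05% of all genes passed in that direction, while Ccr2 did not pass. Here too the calls of Ccl8 and Ccl12 add no support to the count. The log2 difference of the responses was -8.67 for Ccl12 (SE 0.48, adjusted p = 1.09e-06), -6.76 for Ccl7 (SE 0.88, 0.000462), -5.15 for Ccl2 (SE 0.48, 4.52e-05) and -5.00 for Ccl8 (SE 0.53, 0.000107). With normexp correction it was -6.66 for Ccl12 and -2.95 for Ccl8, whose wild-type PBS signals were not above background, and both calls held. The ligands' differences were not tested against each other. For Ccr2 it was -0.58 (SE 0.31, adjusted p = 0.242), with an interval from -1.27 to 0.10. On every ligand this call held under all alternatives run.

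**Figure D3:**
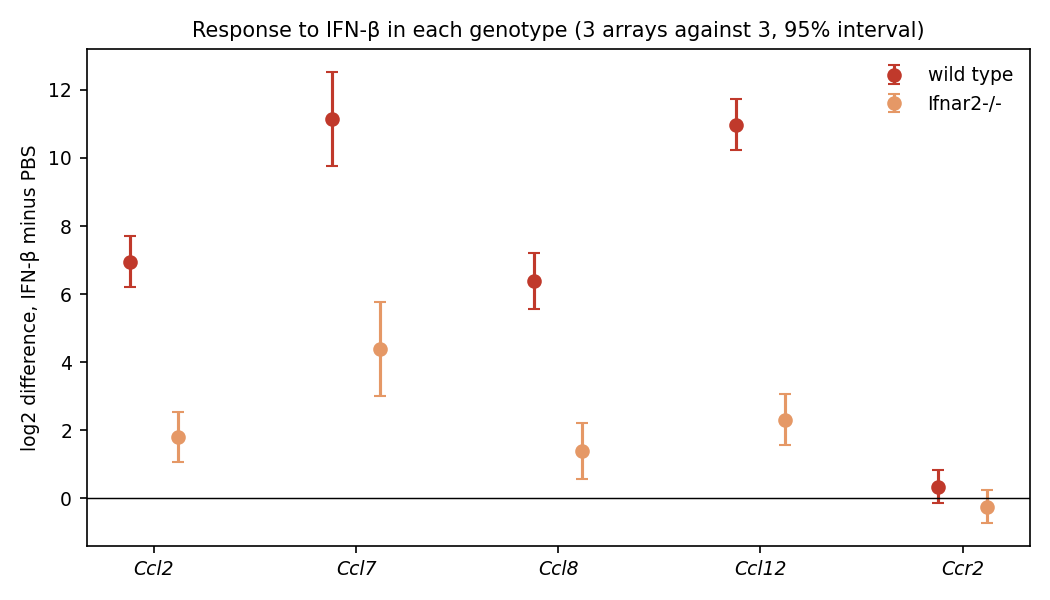
Log2 difference between IFN-β and PBS (y axis) for each member in wild-type and Ifnar2-/- cells, with the 95% interval from limma (3 arrays against 3). For each ligand the 2 intervals lie apart, and for Ccr2 they overlap.

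After IFN-β, Ifnar2-/- cells held less of every ligand transcript than wild-type cells. The 4 ligands were lower, where 17.1% of all genes were, and the arrays of the groups did not overlap, as for 21.1% of all genes. Ccl12 was 139-fold lower (log2 difference -7.12, SE 0.34, adjusted p = 1.03e-07) and Ccl7 62.2-fold lower (-5.96, SE 0.62, 3.70e-05). Ccl2 was 23.3-fold lower (-4.54, SE 0.34, 3.00e-06) and Ccl8 23.1-fold lower (-4.53, SE 0.37, 6.41e-06). The size for Ccl8 depended most on the background correction. With normexp correction the differences were -2.99 for Ccl8, -6.43 for Ccl12, -5.86 for Ccl7 and -4.48 for Ccl2. Ccr2 differed by -0.05 (adjusted p = 0.864), with a 95% interval from -0.54 to 0.43. This comparison shares the Ifnar2-/- and the wild-type IFN-β arrays with the ones above. On slide 2, which held 1 Ifnar2-/- and 2 wild-type arrays after IFN-β, the differences were -5.22 for Ccl2, -7.55 for Ccl7, -5.07 for Ccl8 and -6.96 for Ccl12.

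Monocyte markers were also higher in wild-type cells after IFN-β. The summed signal of the 10 markers tested was 555.3 to 566.9 on these arrays and 224.1 to 273.4 on the other 9. With IFN-β in wild type 7 of the 10 rose, where 17.5% of all genes did. In Ifnar2-/- cells none passed the limma test, and 1 was higher at an unadjusted p under 0.05. Of the 7 that rose in wild type, the largest rises were of Ms4a4c (4.96), Vcan (3.73), Chil3 (3.46) and Ms4a6c (3.13). Ms4a4c and Ms4a6c encode membrane proteins of myeloid cells. Ly6c1 (1.46) was also among the 7. After PBS 1 of the 10 markers, F13a1, was higher in Ifnar2-/- than in wild-type cells (1.83, limma adjusted p = 0.00340), where 2.80% of all genes were. Ly6c2, the defining monocyte gene of the list, did not pass the filter. The part of monocyte number in the ligand differences was not tested. In such mixed cells, more cells of a type and more RNA per cell cannot be told apart.

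After PBS most of these genes did not pass between the genotypes, which does not show that their levels were equal. Of the 5 members 1 passed in the higher direction in Ifnar2-/-, where 2.80% of all genes did. This was Ccl12, with a fitted difference of 1.54 (SE 0.34, adjusted p = 0.0273). It was above background on 1 of 3 Ifnar2-/- and none of 3 wild-type arrays. The wild-type PBS arrays lay on slide 1 and the Ifnar2-/- PBS arrays on slides 2 and 3, so that no slide held both. With slide as a fixed block the adjusted p was 0.833, and with normexp correction it was 0.502 for a difference of 0.23. The call was also lost without wild-type PBS array 2 (adjusted p = 0.0946) or 3 (0.0886) and without Ifnar2-/- PBS array 1 (0.0573) or 3 (0.109). Ccl2 was at 0.61 (adjusted p = 0.339), Ccl7 at 0.80 (0.504) and Ccl8 at 0.47 (0.513), none past the threshold. Their 95% intervals were wide, from -0.14 to 1.36 for Ccl2, -0.58 to 2.18 for Ccl7 and -0.36 to 1.29 for Ccl8.

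The 2 Ccr2 probes gave different calls after PBS. The brighter probe differed by 0.53 (SE 0.22, adjusted p = 0.209) and the dimmer one by 1.32 (SE 0.31, adjusted p = 0.0384). The dimmer probe read -1.26, -1.57 and -1.56 on wild-type PBS arrays, -0.42, 0.22 and -0.24 on Ifnar2-/- PBS arrays and -1.12, -1.26 and -1.19 on wild-type IFN-β arrays. On Ifnar2-/- IFN-β arrays it read -1.28, -0.09 and 0.10, with the 2 arrays on slide 3 above the one on slide 2. Between the genotypes after IFN-β it differed by 0.76 (SE 0.31, adjusted p = 0.0751).

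The responses of the 4 paralogues were compared pair by pair within each genotype, as the within-array log2 difference of 2 ligands on IFN-β arrays against PBS arrays. With 3 arrays against 3 the exact two-sided permutation test cannot give a p under 0.10, and over the 12 tests (6 pairs in 2 genotypes) the smallest adjusted p was 0.171. In wild type the responses of Ccl7 and Ccl12 could not be told apart, with a gap of 0.18 (exact p = 0.90) and overlapping arrays, nor could those of Ccl2 and Ccl8, with 0.57 (exact p = 0.40). The arrays did not overlap for the 4 pairs across these, where the gap was 4.02 to 4.77 log2 units in size and the exact p was 0.10. Ccl7 exceeded Ccl2 by 4.20 and Ccl8 by 4.77, and Ccl12 exceeded Ccl2 by 4.02 and Ccl8 by 4.60. Of the 6 wild-type pairs, 5 involve Ccl8 or Ccl12, which no wild-type PBS array measured above background, and the sizes depended on the background correction. With normexp correction Ccl2 minus Ccl12 was -0.77, Ccl2 minus Ccl7 was -2.73, Ccl2 minus Ccl8 was 3.63 and Ccl7 minus Ccl12 was 1.97, so that the 4 genes did not fall into the same pairs.

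In Ifnar2-/- cells Ccl7 had the larger response in each of its 3 pairs, by 2.59 over Ccl2, 2.08 over Ccl12 and 3.01 over Ccl8, with arrays that did not overlap and an exact p of 0.10. Ccl2 and Ccl12 differed by -0.51 (exact p = 0.60), Ccl2 and Ccl8 by 0.42 (0.50) and Ccl8 and Ccl12 by -0.93 (0.20), all with overlapping arrays. The gap between Ccl7 and Ccl12 was 0.89 without Ifnar2-/- IFN-β array 3, on which Ccl7 was highest and Ccl12 lowest. The change of a gap between genotypes was not tested. All gaps that involve Ccl8 or Ccl12 rest on PBS levels at or near background. The gap of Ccl2 minus Ccl12 in Ifnar2-/- cells turned to 0.83 with normexp correction.

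Set beside wider lists, Ccl2 and Ccl7 passed in both genotypes in the main fit, and the interferon genes passed mainly in wild type. The Ifnar2-/- calls of Ccl2 and Ccl7 were lost in a fit of the Ifnar2-/- arrays alone. Calls of list genes in Ifnar2-/- cells, here and in the next paragraphs, come from the main fit of all 12 arrays. They were not read from the smaller fit, which called far fewer genes. Those of Ccl8 and Ccl12 are left out here, since they add no support. Of the 18 genes of interferon signalling and its targets, 15 rose in wild type (median 7.46), led by Rsad2 at 11.70 (SE 0.38) and Ifit3 at 10.11 (SE 0.50), antiviral effectors. In Ifnar2-/- cells 1 rose, Oasl1 at 1.79 (SE 0.19, adjusted p = 0.00223), and 1 fell, Cmpk2 at -1.20 (SE 0.24, 0.0462), with a list median of 0.14. The difference of the responses passed in the lower direction for 15 of 18. Of all genes 9.05% passed in that direction, 17.5% rose in wild type, and 0.963% rose and 0.208% fell in Ifnar2-/- cells.

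Of 17 tested genes for NF-kB subunits, inhibitors and inflammatory targets, 11 rose in wild type (median 0.94) and 10 rose in Ifnar2-/- cells (median 1.60). The shares of all genes were 17.5% and 0.963%. Acod1, the itaconate-producing enzyme, rose by 9.17 (SE 0.55) in wild type and 6.19 (SE 0.55, adjusted p = 0.000710) in Ifnar2-/- cells. Il6, an acute-phase cytokine gene, rose by 5.51 (SE 0.28) and 3.48 (SE 0.28, adjusted p = 0.000467). Il1b rose by 3.75 (SE 0.65, adjusted p = 0.0255) in Ifnar2-/- cells, where its response was larger than in wild type by 3.05 (SE 0.92, adjusted p = 0.0430). The difference of the responses passed for 3 of the 17 genes in each direction, against 8.79% of all genes higher and 9.05% lower. The list was chosen with these data known, so its counts are a description. Its Ifnar2-/- calls rest on the main fit and were not read from the fit of the Ifnar2-/- arrays alone.

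**Figure D4:**
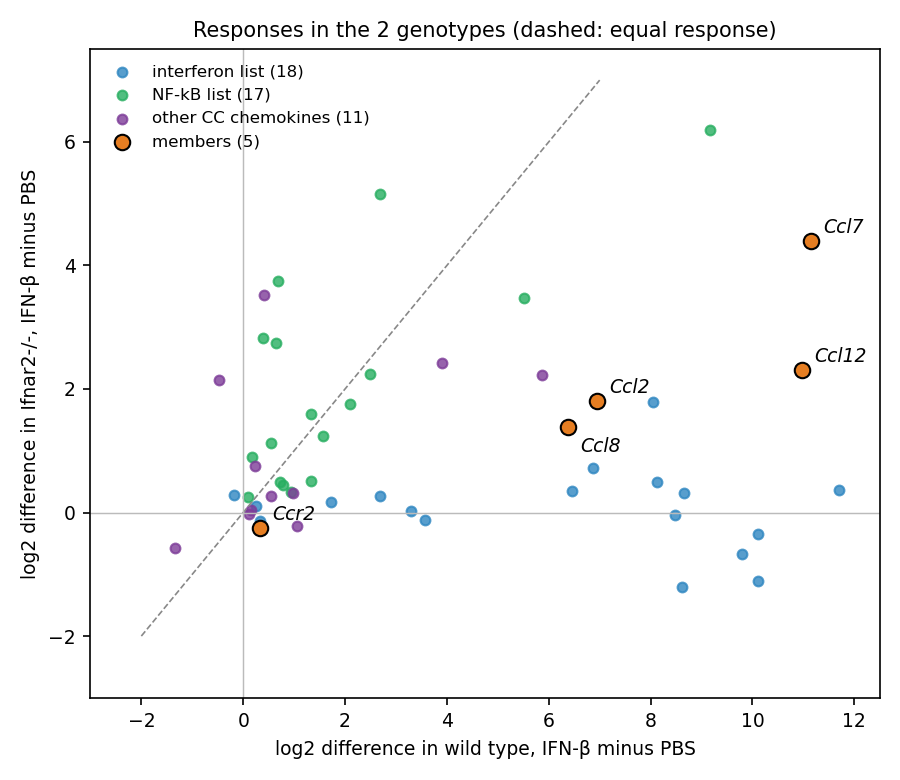
Log2 difference between IFN-β and PBS in wild type (x axis) and in Ifnar2-/- cells (y axis) for the 5 members and for tested genes of 3 lists, 18 interferon, 17 NF-kB and 11 other CC chemokine genes. The dashed line marks equal responses. The 4 ligands lie below the line, at 6.38 to 11.15 in wild type and 1.38 to 4.39 in Ifnar2-/- cells.

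Of 11 other CC chemokine genes tested (of 16 listed), 5 rose and 1 fell in wild type (median 0.40), and 3 rose in Ifnar2-/- cells (median 0.31). The shares of all genes were 17.5% higher and 21.9% lower in wild type and 0.963% higher in Ifnar2-/- cells. Ccl3 and Ccl4, macrophage inflammatory proteins encoded on the same chromosome, passed in both genotypes. Ccl4 rose by 5.87 (SE 0.36) in wild type and 2.22 (SE 0.36, adjusted p = 0.0204) in Ifnar2-/- cells, and Ccl3 by 3.90 (SE 0.35) and 2.42 (SE 0.35, 0.0133). Ccl22, a ligand of Ccr4, was 2.37-fold higher after IFN-β in Ifnar2-/- cells, taken against the detection floor (adjusted p = 0.0153). It was not above background on any wild-type array of either treatment, nor on any Ifnar2-/- PBS array. Having entered the test only through the group in which it is high, it adds no support to the count.

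Of the 10 other CC receptors and decoys tested, 2 rose and 4 fell in wild type, where 17.5% of all genes rose and 21.9% fell, and 1 rose in Ifnar2-/- cells, where 0.963% did. Ccrl2, an atypical receptor, rose by 3.78 (SE 0.21) in wild type and by 1.08 (SE 0.21, adjusted p = 0.0434) in Ifnar2-/- cells. Cx3cr1, the fractalkine receptor of monocytes and macrophages, fell by 3.03 (SE 0.28) and Ccr7, which guides cells to lymph nodes, by 2.07 (SE 0.32) in wild type.

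Of 24 tested genes that carry the Ccr2 signal or serve migration, 3 rose and 8 fell in wild type (median -0.19), against 1 and 0 by limma in Ifnar2-/- cells (2 and 4 at an unadjusted p under 0.05, median -0.13). The shares of all genes were 17.5% higher and 21.9% lower in wild type and 0.963% higher in Ifnar2-/- cells. Pik3cg, the phosphoinositide kinase catalytic subunit downstream of chemokine receptors, fell by 2.03 (SE 0.18, adjusted p = 1.36e-05). Arrb1, a beta-arrestin that desensitises such receptors, fell by 1.56 (SE 0.18). Cxcr4, the bone marrow retention receptor, fell by 1.76 (SE 0.32). In Ifnar2-/- cells Pik3r5, a regulatory subunit of the same kinase, passed with 0.67 (SE 0.14, adjusted p = 0.0497).

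Across the 12 arrays the 4 ligands' log2 values correlated with one another at Pearson's r of 0.96 to 0.99, and with Ccr2 at 0.15 to 0.17. These values are set mainly by the 4 group means and are given as a description. The 5 genes most like each member by this measure were Naa25, Rpf2, Tomm70a, Tmem248 and Gemin5 for Ccl2 (r from 0.992 to 0.988). For Ccl7 they were Ccl4, Rbbp8, Aen, Car13 and Map2k4 (0.991 to 0.985). For Ccl12 the named genes were Ccrl2, Gch1, Senp1 and Rasa4 (0.992 to 0.986), and for Ccl8 Cxcl9, Senp1 and Camk2d (0.988). Ccr2 had no gene as close, with 5830408C22Rik at 0.80 and Cd52, a leukocyte surface antigen, at 0.79.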

How the data were processed

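Total RNA of 12 samples was labelled with Cy3 and hybridised to 1-colour Agilent arrays. Per the file headers, signals were extracted with Agilent Feature Extraction 9.5.3.1 (design Agilent-014868, build mm7), so the deposited processed signal is a linear intensity after spatial background subtraction, not normalized between arrays. The deposited value table of the series held the same intensities (0 of 45018 values differed on any array), with column medians from 50.7 to 77.6, neither centred nor logged.

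Here log2 of the processed signal minus the log2 75th percentile of each array was used. Outlier spots were left out (84 to 167 an array), spots of a probe were averaged, and a gene was represented by its kept probe of highest mean. Probes were renamed through RefSeq tables (GRCm38.p6): 22951 by accession, 6659 by symbol and 3109 by older symbol, while 8455 kept the files' name. All 12 arrays entered 1 limma 3.58.1 fit (R 4.3.3) of 4 group means, tested two-sided with Benjamini-Hochberg adjustment over 18275 genes at 0.05. The script was tested on simulated data. The number of arrays limits the precision. Members, lists and tests were chosen with earlier results of these data known. Named list genes are the up to 4 with the largest change past the threshold per list and comparison, and the likest genes are the 5 of highest r. Some genes that this rule names are not reported here. Oligonucleotide and transcript names without a gene are left out of that list. Replicate numbers did not pair samples: the correlation of deviations between same-numbered arrays was -0.12 to 0.51 (median 0.04). Alternatives are in the closing section. Promoter windows came from RefSeq tables, and no other genome sequence was used.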

Additional observations from a re-analysis of the deposited data

Results flagged for a closer look

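The IFN-β responses of the 2 genotypes differed for the 4 ligand genes by the interaction term of the limma fit. The Ifnar2-/- response minus the wild-type response, on the log2 scale, was -5.1525 for Ccl2 (adjusted p = 4.52e-05), -6.7593 for Ccl7 (0.000462), -4.9962 for Ccl8 (0.000107) and -8.665 for Ccl12 (1.09e-06). All 3 Ifnar2-/- IFN-β arrays lay below all 3 wild-type IFN-β arrays for each of the 4 genes. For Ccl8 and Ccl12 the size rests on wild-type PBS signals below background. The calls of these 2 genes add no support, since both entered the test only through IFN-β groups.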

How the results depend on the processing

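The lower response of the 4 ligands in Ifnar2-/- cells, their rise in wild type and their lower level after IFN-β in Ifnar2-/- cells passed the threshold in every alternative fit, in the same direction. For Ccl8 and Ccl12 the calls of the rise and of the lower response add no support. Both genes entered the test only through IFN-β groups. Without a value are Ccl8 and Ccl12 under the filter for probes above background on all 12 arrays, which they do not meet. No value of a member that passed the threshold changed sign. Among values that did not pass, the difference between genotypes after PBS turned to -0.04 for Ccl8 with normexp correction and to -0.05 for Ccl7 with slide as a fixed block. That of Ccr2 after IFN-β, -0.05, turned to 0.13 with quantile normalization, 0.32 without scaling, 0.17 with slide as a fixed block, 0.35 with the mean of its probes and 0.76 on its second probe, and reached 0.06 with 1 array left out. The rises without Ifnar2 were less stable. Ccl2 (1.80) lost its call with slide as a fixed block (adjusted p = 0.0550), without a filter (0.0915) and with the compared groups alone (0.269), which also ended those of Ccl7 (4.39, 0.180) and Ccl12 (2.31, 0.167). That last fit took its spread from the Ifnar2-/- arrays alone, which are fewer. On the IFN-β arrays the SD was 0.86 for Ccl2, 1.60 for Ccl7 and 0.66 for Ccl12. On the PBS arrays it was 0.12, 0.20 and 0.42. The fit of all 12 arrays shares 1 spread per gene across the 4 groups. Without slide 3 the rises of Ccl2, Ccl7 and Ccl12 in Ifnar2-/- cells were 1.14, 2.69 and 2.30. In that fit the lone arrays are assumed to vary like the other groups. Within slide 2 the values were the same, with 0.58 for Ccl8 and -0.71 for Ccr2, and between genotypes after IFN-β -5.22 for Ccl2, -7.55 for Ccl7 and -5.07 for Ccl8, on single arrays with no test.

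Leaving out each array in turn, the rise in Ifnar2-/- cells was 1.32 to 2.15 for Ccl2, 3.57 to 5.16 for Ccl7 and 2.05 to 2.68 for Ccl12, with the call kept in 2, 5 and 5 of 6 fits. The genotype difference of Ccl12 after PBS was 1.36 to 1.79, kept in 2 of 6. It was 0.23 with normexp correction, 1.54 without a filter (adjusted p = 0.0534), 1.58 with slide as a fixed block and 1.77 without slide 3, none past the threshold. Ccr2 after PBS passed with the mean of its probes (0.92, adjusted p = 0.0417) and on its second probe (1.32, 0.0384). The cause was not tested.

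Normexp correction moved 8 gaps between paralogues. In wild type Ccl2 minus Ccl7 became -2.73, Ccl2 minus Ccl8 3.63, Ccl2 minus Ccl12 -0.77, Ccl7 minus Ccl8 6.36 and Ccl7 minus Ccl12 1.97. In Ifnar2-/- cells Ccl2 minus Ccl7 became -1.66, Ccl2 minus Ccl8 1.51 and Ccl2 minus Ccl12 0.83, the last with the opposite sign of a gap that had not passed.

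Counts of all genes moved by over 1.5 times as follows, against 3195 higher and 3999 lower in wild type, 176 and 38 in Ifnar2-/- cells, 1607 and 1654 for the difference of responses, 511 and 372 between genotypes after PBS and 3911 and 3126 after IFN-β. With slide as a fixed block they were 1992 and 2432 in wild type, 100 and 18 in Ifnar2-/- cells, 778 higher for the difference, 13 and 18 after PBS and 2357 and 2013 after IFN-β. Without slide 3 they were 53 higher in Ifnar2-/- cells, 464 and 828 for the difference, 159 and 100 after PBS and 2362 and 1789 after IFN-β. With no scaling they were 22 lower in Ifnar2-/- cells, 2802 higher for the difference, and 7636 and 1813 after IFN-β. Without a filter they were 61 and 7 in Ifnar2-/- cells, 999 higher for the difference and 237 lower after PBS. Array weights gave 2502 higher for the difference and 1128 and 775 after PBS. In Ifnar2-/- cells 112 were lower with normexp, 73 lower among probes above background on all arrays, and 13 and 0 with the compared groups alone (limma, with 1137 and 1157 at an unadjusted p under 0.05). Leaving out single arrays gave 28 to 209 higher and 4 to 93 lower in Ifnar2-/- cells, and 252 to 918 higher and 180 to 363 lower after PBS.

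With the replicate number as a block, 111 genes were higher in Ifnar2-/- cells, and no other count moved by over 1.5 times and no call of a member changed. With no scaling the median of all genes moved to -0.21 in wild type, 0.07 in Ifnar2-/- cells, 0.31 for the difference, 0.11 after PBS and 0.46 after IFN-β. The share of calls that were higher then went from 44.4% to 30.6% in wild type, from 49.3% to 71.2% for the difference and from 55.6% to 80.8% after IFN-β. With normexp it went from 82.2% to 66.6% in Ifnar2-/- cells. For Ccl8 and Ccl12 signal over background limits the resting level.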
